A study of Mus musculus with 6 samples.

Results

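The growing mouse oocyte makes the zona pellucida, the glycoprotein coat to which sperm bind, and secretes growth factors that act on the follicle cells around it. The genes described here are the zona genes Zp1, Zp2 and Zp3, the egg protease gene Astl, the growth factor genes Gdf9, Bmp15 and Fgf8, and Oosp1, which encodes a small secreted oocyte protein. They were taken by symbol, 8 of the 23284 gene symbols in the files, and all 8 had counts in every library and entered the test. RNA was sequenced from fully grown germinal vesicle oocytes, in which meiosis is paused until ovulation. The Lsd1 KO group lacked Lsd1 (Kdm1a), a histone lysine demethylase, and the Control group had the control genotype, with 3 libraries in each. All came from females 4 to 6 weeks old on a mixed C57BL/6 and 129 background, 48 hours after 5 IU of pregnant mare serum gonadotrophin, and each library held 100 oocytes. The sources used here give neither the targeted allele, any Cre driver, nor the number of animals behind a library.

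ZP1, ZP2 and ZP3 assemble into filaments outside the oocyte, with ZP1 as the cross-linker of filaments. After fertilization ovastacin, the product of Astl, is released from cortical granules and cleaves ZP2, which ends sperm binding. GDF9 and BMP15 are relatives in the TGF-beta family that signal, alone or as a heterodimer, through receptors and SMAD proteins in granulosa cells. FGF8 works with BMP15 to drive glycolysis in the cumulus cells. In growing oocytes the zona genes are activated by FIGLA, which binds E-boxes as a partner of E proteins such as TCF3, and Gdf9 and Bmp15 by NOBOX.

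Promoter sequence is shown for the genes that bear on this control and have an entry in the RefSeq promoter table (build GRCm38.p6). Of the 8 genes, 4 had one: Zp3, Astl, Bmp15 and Oosp1. The 250 bases before the annotated start are printed 5′ to 3′ for Zp3 and Bmp15, which did not pass the test below, and for Oosp1, which rose. Capitals mark each match to the E-box CANNTG, a palindromic pattern that covers both strands. The Zp3 window is chr5:135979855-135980104 (plus strand), the Bmp15 window chrX:6320725-6320974 (minus strand) and the Oosp1 window chr19:11691052-11691301 (minus strand).
Zp3: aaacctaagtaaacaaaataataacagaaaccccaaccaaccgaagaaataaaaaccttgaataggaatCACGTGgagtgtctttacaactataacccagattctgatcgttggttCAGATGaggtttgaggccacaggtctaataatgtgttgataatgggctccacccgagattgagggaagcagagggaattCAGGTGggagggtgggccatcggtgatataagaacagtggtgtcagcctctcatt
Bmp15: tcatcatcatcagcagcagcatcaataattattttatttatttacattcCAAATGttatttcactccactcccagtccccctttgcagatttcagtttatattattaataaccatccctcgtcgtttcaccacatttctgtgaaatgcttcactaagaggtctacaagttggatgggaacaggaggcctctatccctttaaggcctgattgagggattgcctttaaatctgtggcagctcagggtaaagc
Oosp1: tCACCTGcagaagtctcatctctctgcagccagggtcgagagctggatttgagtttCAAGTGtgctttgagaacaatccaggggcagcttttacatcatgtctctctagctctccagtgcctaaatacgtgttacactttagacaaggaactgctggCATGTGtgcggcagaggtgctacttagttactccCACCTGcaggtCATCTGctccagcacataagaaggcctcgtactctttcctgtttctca

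Counting the last base before the start as -1, the Zp3 window held CACGTG from -181, CAGATG from -134 and CAGGTG from -55. The Bmp15 window held 1 match, at -201, and the Oosp1 window held 5, at -249, -194, -93, -59 and -48. Of the windows before the 2 annotated Astl starts, 1 held 3 matches and the other held none. An E-box of this loose form is common: 66.2% of all 32851 promoter windows of this length held at least 1. The NOBOX-type hexamer TAATTG, searched on both strands, was in none of these windows and in 7.17% of all windows. Other hexamers that NOBOX may bind were not searched, so this does not show that these windows lack NOBOX sites. Both motif searches describe the letters only. Binding was not measured.

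Libraries held 10735422 to 13035045 counts in genes. Kdm1a was at 31 to 47 counts in the Lsd1 KO libraries and 492 to 962 in the Control libraries, in keeping with each library's label. Levels are CPM, counts scaled to a common library size, after TMM scaling, as mean ± SD (n = 3 per genotype). Fold changes are log2 of Lsd1 KO over Control ± SE, with Benjamini-Hochberg adjusted p over all 12935 genes tested by edgeR's quasi-likelihood test. Of these, 1421 (11%) were higher and 1329 (10.3%) lower at an adjusted p under 0.05, together 21.3%. With a library left out, the count of lower genes dropped most without replicates 1 and 3 of Lsd1 KO (to 638 and 727) and replicate 2 of Control (781), and that of higher genes without replicate 1 of Control (932). Nothing in the labels ties libraries to single animals, so p-values measure the spread between these libraries. In bulk RNA a lower level per oocyte and fewer oocytes carrying a transcript cannot be told apart. The libraries held oocyte RNA: the 10 oocyte markers outside the set summed to 12437 to 14369 CPM in Lsd1 KO and 11097 to 14621 CPM in Control.

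Of the 8 genes, Gdf9 and Oosp1 rose, Fgf8 fell, and the 3 zona genes, Astl and Bmp15 did not pass. That is 37.5% of the genes called, beside 21.3% of all genes tested, and in a list this short nothing is read from the difference. The groups did not overlap for 5 of the 8 genes (Zp2, Gdf9, Bmp15, Oosp1 and Fgf8), and for 38.7% of all genes tested. The 8 genes took 2.75% to 3.09% of all counts in the Lsd1 KO libraries and 1.57% to 1.97% in the Control libraries. Without Gdf9 these shares were 1.29% to 1.49% and 0.913% to 1.40%, and the groups overlapped. Control replicate 3 stood apart from the other Control libraries in its low zona and Astl levels, so the zona results are also given without it. Markers of granulosa, theca and immune cells had higher medians in Lsd1 KO (log2 fold change 1.36, 0.87 and 1.78), beside the rise of Gdf9 and Oosp1, and their values are given with the marker lists.

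**Figure D1:**
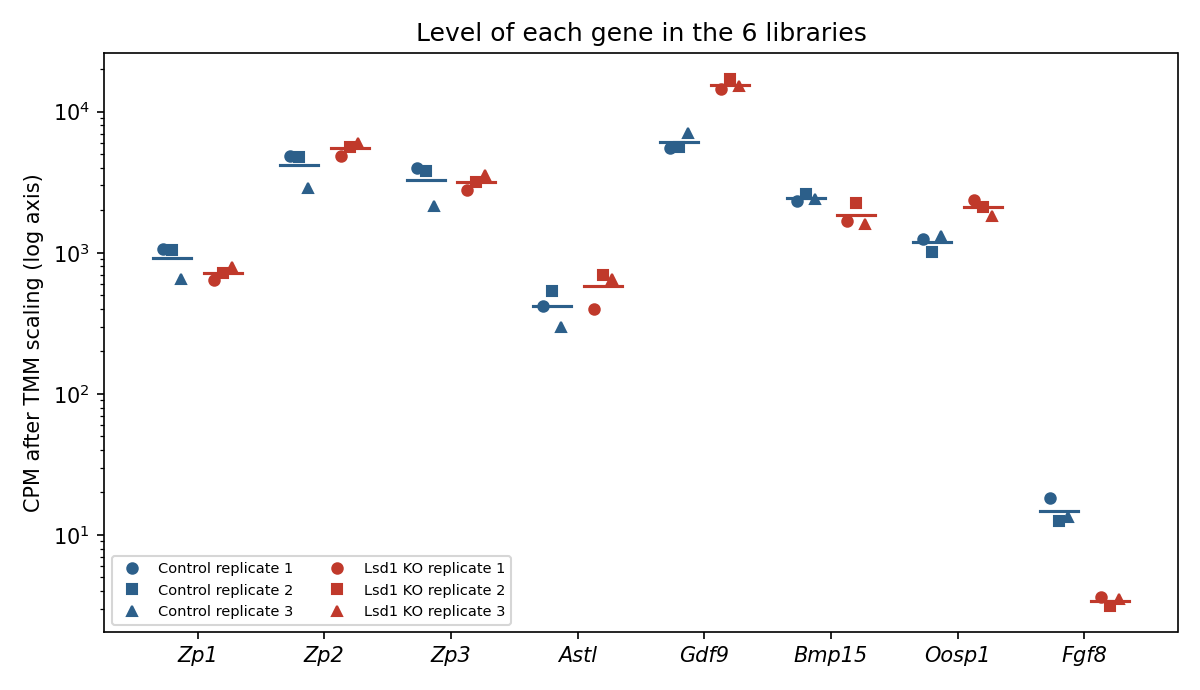
CPM after TMM scaling (log axis) of each of the 8 genes in the 3 Control (blue) and 3 Lsd1 KO (red) libraries, with the marker shape giving the replicate and the bar the group mean. Gdf9 and Oosp1 sit higher and Fgf8 lower in every Lsd1 KO library than in any Control library, and Control replicate 3 (triangle) lies below the other Control libraries for the zona genes and Astl.

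Levels between genes were compared per kilobase of annotated exon. In Control the order was Gdf9 (2982 ± 409 CPM per kilobase), Zp3 (2495 ± 759), Zp2 (1723 ± 456), Oosp1 (1202 ± 153), Bmp15 (799 ± 46.9), Zp1 (465 ± 119), Astl (164 ± 47.0) and Fgf8 (10.9 ± 2.28). The Control ranges of Gdf9 and Zp3, of Zp3 and Zp2, and of Zp2 and Oosp1 overlapped, whereas each later gene in the order lay below its neighbour in every library. In Lsd1 KO, Gdf9 stood apart at 7660 ± 622 CPM per kilobase. Behind it Zp3 (2401 ± 279), Zp2 (2265 ± 241) and Oosp1 (2122 ± 281) overlapped. Bmp15 was at 603 ± 119, Zp1 at 363 ± 38.3, Astl at 228 ± 63.2 and Fgf8 at 2.53 ± 0.175 CPM per kilobase.

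The growth factor Gdf9 is on mm9 chromosome 11 (53244525 to 53251406, plus strand; ENSMUSG00000018238.6). Its level was 14482, 16950 and 15242 CPM in Lsd1 KO replicates 1 to 3, against 5569, 5586 and 7015 CPM in Control replicates 1 to 3. Every Lsd1 KO library lay above every Control library. The log2 fold change was 1.36 ± 0.18 (edgeR adjusted p = 5.01e-04), 2.57-fold, with a 95% interval of 0.97 to 1.76. By mean CPM Gdf9 ranked 6 among all genes in Control and 1 in Lsd1 KO. Gdf9 starts 192 bases from Uqcrq, a subunit gene of respiratory complex III on the opposite strand. Uqcrq was at 109 ± 11.8 CPM in Lsd1 KO, against 130 ± 20.1 CPM in Control, and did not pass (log2 -0.26 ± 0.18, edgeR adjusted p = 0.324). The annotation held no gene that overlaps Gdf9 or any of the other 7.

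Bmp15, the X-linked partner of Gdf9 (5891225 to 5897839, minus strand; ENSMUSG00000023279.7), had its lower mean in Lsd1 KO. It was at 1670, 2262 and 1601 CPM in Lsd1 KO, against 2329, 2605 and 2399 CPM in Control. The groups did not overlap, with Lsd1 KO replicate 2 close to the lowest Control library. The log2 fold change of -0.41 ± 0.19 did not pass (edgeR adjusted p = 0.14), although its 95% interval, from -0.81 to -0.0024, ended just short of 0. A larger drop than log2 0.41 is thus within the error.

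The ratio of Gdf9 to Bmp15 counts within a library does not depend on library scaling. It was 8.67, 7.49 and 9.52 in Lsd1 KO, against 2.39, 2.14 and 2.92 in Control. On the log2 scale the ratio was 3.09 ± 0.17 (SD, n = 3) against 1.30 ± 0.23, a difference of 1.79 (two-sided exact permutation p = 0.1). That is the smallest p that 3 libraries against 3 can give (0.125 after adjustment over the 5 ratios tested). The Gdf9 to Zp3 ratio was 5.16, 5.33 and 4.30 in Lsd1 KO, against 1.40, 1.48 and 3.27 in Control. The groups did not overlap (exact permutation p = 0.1), and Control replicate 3, the Control library with the lowest Zp3 and highest Gdf9 level, stood nearest to the Lsd1 KO libraries.

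Fgf8, the least abundant of the 8, showed the largest fold change among them. It lies on mm9 chromosome 19 (45811288 to 45817405, minus strand; ENSMUSG00000025219.7). Its counts were 45, 35 and 39 in Lsd1 KO, against 197, 166 and 148 in Control. These are 3.61, 3.16 and 3.50 CPM against 18.2, 12.5 and 13.4 CPM, with no overlap. The log2 fold change was -2.10 ± 0.31 (edgeR adjusted p = 8.72e-04), 4.28-fold lower, with a 95% interval of -2.77 to -1.43. Its neighbours Npm3 (6.22 ± 0.599 against 4.55 ± 1.10 CPM) and Fbxw4 (79.7 ± 4.82 against 59.6 ± 4.58 CPM) had higher means in Lsd1 KO and did not pass.

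Oosp1 (mm9 chromosome 19, 11741950 to 11765640, minus strand; ENSMUSG00000041857.3) was at 2379, 2102 and 1822 CPM in Lsd1 KO. In Control it was at 1244, 1019 and 1306 CPM, below each Lsd1 KO library. The log2 fold change was 0.82 ± 0.18 (edgeR adjusted p = 0.0084), 1.77-fold, with a 95% interval of 0.42 to 1.22. Oosp1 sits between Plac1l, the files' symbol for its relative Oosp2, and Gm97, their symbol for Oosp3. Plac1l, 6901 bases away on the same strand, was at 421 ± 11.0 CPM in Lsd1 KO, against 540 ± 101 CPM in Control. Gm97, 5905 bases away on the opposite strand, was at 770 ± 123 CPM and 1145 ± 345 CPM. Neither passed (log2 -0.36 ± 0.18 and -0.57 ± 0.23, edgeR adjusted p = 0.180 and 0.101), so that of the 3 OOSP genes Oosp1 alone was called. Whether their fold changes differ from that of Oosp1 was not tested.

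**Figure D2:**
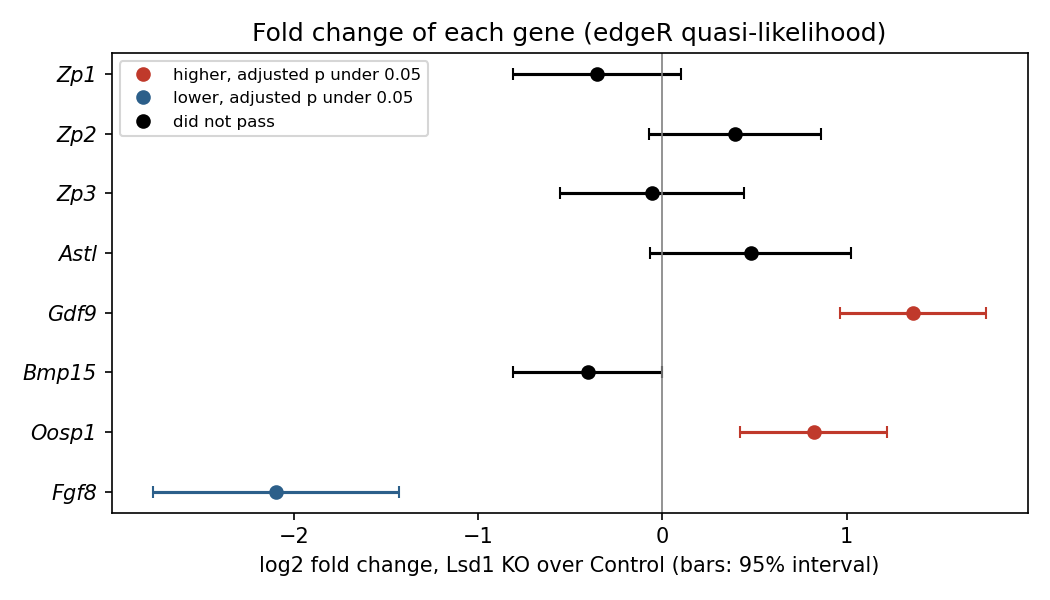
Log2 fold change of each of the 8 genes, Lsd1 KO over Control, from edgeR's quasi-likelihood fit, with bars for the 95% interval. The intervals of Gdf9 (1.36) and Oosp1 (0.82) lie above 0 and that of Fgf8 (-2.10) below it, while Zp1, Zp2, Zp3 and Astl span 0 and the Bmp15 interval ends at -0.0024.

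The zona genes lie on separate chromosomes: Zp1 on mm9 chromosome 19 (10988777 to 10995122, minus strand, ENSMUSG00000024734.2), Zp2 on chromosome 7 (127270286 to 127288804, minus strand, ENSMUSG00000030911.5) and Zp3 on chromosome 5 (136455969 to 136464494, plus strand, ENSMUSG00000004948.6). Zp1 was at 642, 723 and 793 CPM in Lsd1 KO, against 1069, 1044 and 648 CPM in Control. Zp2 was at 4848, 5598 and 5996 CPM in Lsd1 KO, against 4832, 4781 and 2895 CPM in Control. Zp3 was at 2806, 3180 and 3544 CPM in Lsd1 KO, against 3978, 3777 and 2146 CPM in Control. Control replicate 3 had the lowest Control level of all 3, and the groups overlapped for Zp1 and Zp3. For Zp2 they were separated only by the small gap between 4832 and 4848 CPM.

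None of the 3 passed. The log2 fold change was -0.36 ± 0.21 for Zp1 (95% interval -0.81 to 0.10, edgeR adjusted p = 0.25). It was 0.39 ± 0.22 for Zp2 (-0.074 to 0.86, edgeR adjusted p = 0.215). For Zp3 it was -0.055 ± 0.23 (-0.55 to 0.44, edgeR adjusted p = 0.888), and its sign turned when Lsd1 KO replicate 1 (0.050), Control replicate 1 (0.076) or Control replicate 2 (0.064) was left out. Zona transcripts together took 0.839% to 1.07% of counts in Lsd1 KO, against 0.995%, 0.978% and 0.535% in Control. Without Control replicate 3, Zp1 was called lower, at log2 -0.57 ± 0.17 (edgeR adjusted p = 0.038), while Zp2 (0.18) and Zp3 (-0.30) still did not pass.

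The split among the 3 zona transcripts was far steadier than their levels. Zp2 made up 58.4%, 58.9% and 58.0% of zona counts in Lsd1 KO, against 48.9%, 49.8% and 50.9% in Control. Zp1 made up 7.73%, 7.61% and 7.68% in Lsd1 KO, against 10.8%, 10.9% and 11.4% in Control. Zp3 made up the rest, 33.5% to 34.3% in Lsd1 KO and 37.7% to 40.3% in Control. In each case the groups did not overlap. Control replicate 3, low in all 3 transcripts, had a split near that of the other Control libraries. It lay at the end of the Control range for each share, for Zp2 and Zp3 the end nearer to Lsd1 KO. The 3 shares are parts of the same total, so they are not independent results.

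As within-library ratios, Zp2 to Zp3 was 1.73, 1.76 and 1.69 in Lsd1 KO, against 1.21, 1.27 and 1.35 in Control. On the log2 scale the Lsd1 KO mean was higher by 0.44 (0.79 ± 0.029 against 0.35 ± 0.076, SD, n = 3, exact permutation p = 0.1). The ratio of Zp1 to Zp3 was 0.229, 0.227 and 0.224 in Lsd1 KO, against 0.269, 0.277 and 0.302 in Control, a log2 difference of -0.32 (exact permutation p = 0.1). Both p-values are the smallest the design allows, 0.125 after adjustment. A ratio cannot show which of its transcripts changed.

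**Figure D3:**
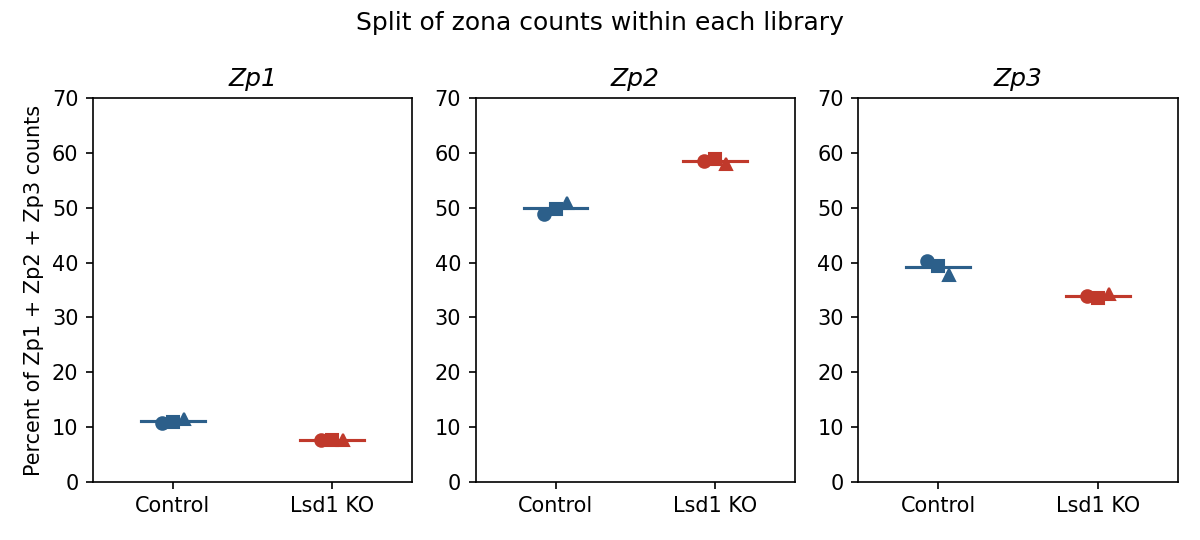
Percent of the summed Zp1, Zp2 and Zp3 counts that each gene takes within a library, for 3 Control (blue) and 3 Lsd1 KO (red) libraries, with the group mean as a bar. Zp2 takes 58.0% to 58.9% in Lsd1 KO and 48.9% to 50.9% in Control, and both Zp1 and Zp3 take less in every Lsd1 KO library than in any Control library.

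Astl, on mm9 chromosome 2 (127164375 to 127183387, plus strand, ENSMUSG00000050468.5), was at 399, 696 and 657 CPM in Lsd1 KO, against 420, 539 and 298 CPM in Control. The groups overlapped, with Lsd1 KO replicate 1 below Control replicates 1 and 2. The log2 fold change of 0.48 ± 0.25 did not pass (95% interval -0.067 to 1.03, edgeR adjusted p = 0.196). The ratio of Astl to its substrate gene Zp2 was 0.0822, 0.124 and 0.110 in Lsd1 KO, against 0.0868, 0.113 and 0.103 in Control, a log2 difference of 0.052 (exact permutation p = 0.8).

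The spread between replicates differed among the genes. In Control the coefficient of variation was 25.6%, 26.5% and 30.4% for Zp1, Zp2 and Zp3, and 28.8% for Astl. It was 13.7% for Gdf9, 12.7% for Oosp1 and 5.87% for Bmp15. In Lsd1 KO the zona genes varied by 10.6%, 10.6% and 11.6%, Gdf9 by 8.12% and Bmp15 by 19.7%. Low zona and Astl levels in Control replicate 3 did not extend to Gdf9 or Oosp1, for both of which it was the highest Control library.

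Likeness of profile was measured as the root mean square distance between log2 CPM over the 6 libraries, each gene centred on its mean. Among 2226 other genes of at least 100 CPM, those nearest to Gdf9 were the alpha-tubulin Tuba1b (distance 0.077), the deadenylase Parn (0.16) and the mRNA export factor Gle1 (0.17). Of the other members, Oosp1 was nearest to Gdf9, at 0.32. Nearest to Zp3 were the ATP synthase subunit Atp5k (0.081), the ribosomal protein Rpl13 (0.10) and the lactate dehydrogenase Ldhb (0.10). Each of these 3 was lowest in Control replicate 3, as Zp3 was. They were picked for their likeness to Zp3 over these libraries, so the shared low is no separate result. Among the members, Zp1 (0.17) and Zp2 (0.22) were nearest to Zp3.

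**Figure D4:**
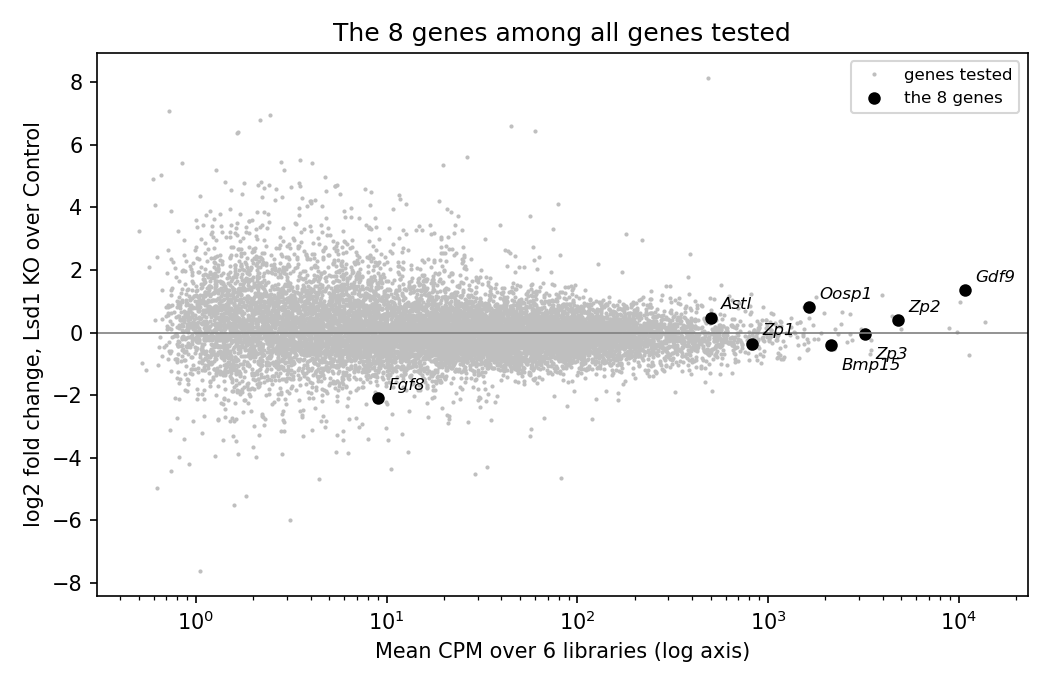
Mean CPM over the 6 libraries (log axis) against the log2 fold change, Lsd1 KO over Control, for 12935 genes tested (grey), with the 8 genes in black. Fgf8 lies among the less abundant genes, the other 7 lie at the abundant end, and Gdf9 is near the right edge at a log2 fold change of 1.36.

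Transcription regulators of these genes were measured as a list of 13, of which 11 were tested: 1 was higher, 5 were lower and 5 did not pass. That is 54.5% called, beside 21.3% of all genes tested. The list's median log2 fold change was -0.57, beside -0.013 over all genes tested. Nobox, the activator of Gdf9 and Bmp15, was at 411 ± 8.27 CPM in Lsd1 KO, against 498 ± 24.4 CPM in Control, and did not pass (log2 -0.27 ± 0.16, edgeR adjusted p = 0.241). The LIM-homeobox factor Lhx8, the most abundant of the list, did not pass either (449 ± 62.8 against 610 ± 92.8 CPM, edgeR adjusted p = 0.107). Figla, named after its values were seen, was at 23.5, 27.1 and 31.4 CPM in Lsd1 KO, against 48.5, 51.5 and 28.4 CPM in Control (log2 -0.65 ± 0.24, edgeR adjusted p = 0.0757). Control replicate 3, low in Zp1, Zp2 and Zp3, was also the lowest Control library for Figla, which overlapped Lsd1 KO there. The FIGLA partner Tcf3, also named after its values were seen, was at 28.5 to 32.2 CPM in Lsd1 KO, below its 41.7 to 48.1 CPM in Control (log2 fold change -0.57 ± 0.18, edgeR adjusted p = 0.0381), a call held in 1 of the 6 fits with a library left out.

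Nr6a1 encodes a nuclear receptor that can repress Gdf9 and Bmp15. It fell from 197 ± 22.0 to 110 ± 29.3 CPM (log2 fold change -0.84 ± 0.21, with an edgeR adjusted p = 0.013). The TFIID subunit Taf4b fell by log2 0.81 (84.0 ± 18.3 to 48.0 ± 6.80 CPM). The zinc-finger factor Gata4, a granulosa cell regulator present here at low level, fell from 22.4 ± 11.1 to 5.52 ± 2.39 CPM. The E protein Tcf4 rose from 12.4 ± 1.27 to 35.8 ± 8.79 CPM (log2 fold change 1.53 ± 0.24, with an edgeR adjusted p = 0.00118). With 1 library left out in turn the number lower ran from 1 (without Lsd1 KO replicate 1 or Control replicate 2) to 6 (without Control replicate 3). Nr6a1 and Taf4b were each called in 3 of the 6 such fits, and Tcf4 and Gata4 in all 6.

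GDF9 and BMP15 signal through type I and type II receptors that activate SMAD proteins. The levels here are those in the oocyte libraries, and the response of granulosa cells to these factors was not measured. Of 19 receptors, SMAD proteins and antagonists, 16 were tested, with 2 higher, 8 lower and 6 that did not pass, and a median log2 fold change of -0.46. This made 62.5% called, beside 21.3% of all genes tested. The type I receptor Acvr1b fell from 54.6 ± 8.47 to 23.7 ± 4.64 CPM (log2 fold change -1.21 ± 0.21, with an edgeR adjusted p = 0.00228). Smad2, which carries the GDF9 signal to the nucleus, fell from 214 ± 22.3 to 119 ± 18.4 CPM. The type II receptor Acvr2b fell from 2.54 ± 1.16 to 0.227 ± 0.121 CPM, on 1 to 4 counts in each Lsd1 KO library. Htra1, a secreted protease known to antagonise TGF-beta family signals, rose from 29.7 ± 4.20 to 55.2 ± 3.01 CPM (log2 0.89 ± 0.19). The BMP15 and GDF9 receptors Bmpr1b (192 ± 39.2 against 249 ± 36.2 CPM) and Bmpr2 (164 ± 32.9 against 192 ± 39.5 CPM) were the most abundant and did not pass. With 1 library left out, the number lower was 3 without replicate 1 or 3 of Lsd1 KO or replicate 2 of Control. It was at most 7 in any such fit.

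Of 16 other TGF-beta family ligands 7 were tested, with 1 higher (14.3%, beside 21.3% of all genes tested) and none lower. That was the inhibin alpha gene Inha, also a granulosa marker, at 21.7, 12.5 and 51.6 CPM in Lsd1 KO, against 10.7, 7.61 and 15.2 CPM in Control. The groups overlapped, and the call held in 2 of the 6 fits with 1 library left out. Tgfb2 (289 ± 23.4 against 342 ± 10.5 CPM) and Bmp6 (58.5 ± 9.28 against 83.4 ± 3.76 CPM) were the most abundant and did not pass.

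Among 14 FGF8 receptors and feedback genes, 10 were tested, with a median of -0.44. Again the levels are those in the oocyte libraries, and the response of cumulus cells to FGF8 was not measured. Of these, 4 were lower (40%, beside 21.3% of all genes tested) and none was higher. Spry4, an inhibitor of FGF receptor signalling that FGFs induce, fell from 495 ± 243 to 212 ± 35.0 CPM (log2 fold change -1.22 ± 0.29, with an edgeR adjusted p = 0.0102). The receptors Fgfr1 (16.9 ± 3.72 to 7.57 ± 1.74 CPM) and Fgfr2 (169 ± 70.8 to 87.8 ± 9.83 CPM) fell, as did the membrane protein gene Flrt3 (8.19 ± 1.04 to 2.78 ± 1.05 CPM). The feedback inhibitor Il17rd was at 143 ± 53.1 CPM in Lsd1 KO, against 141 ± 23.3 CPM in Control. Leaving out Lsd1 KO replicate 1 gave 1 gene lower, and leaving out Lsd1 KO replicate 3 or Control replicate 2 gave 2 lower.

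**Figure D5:**
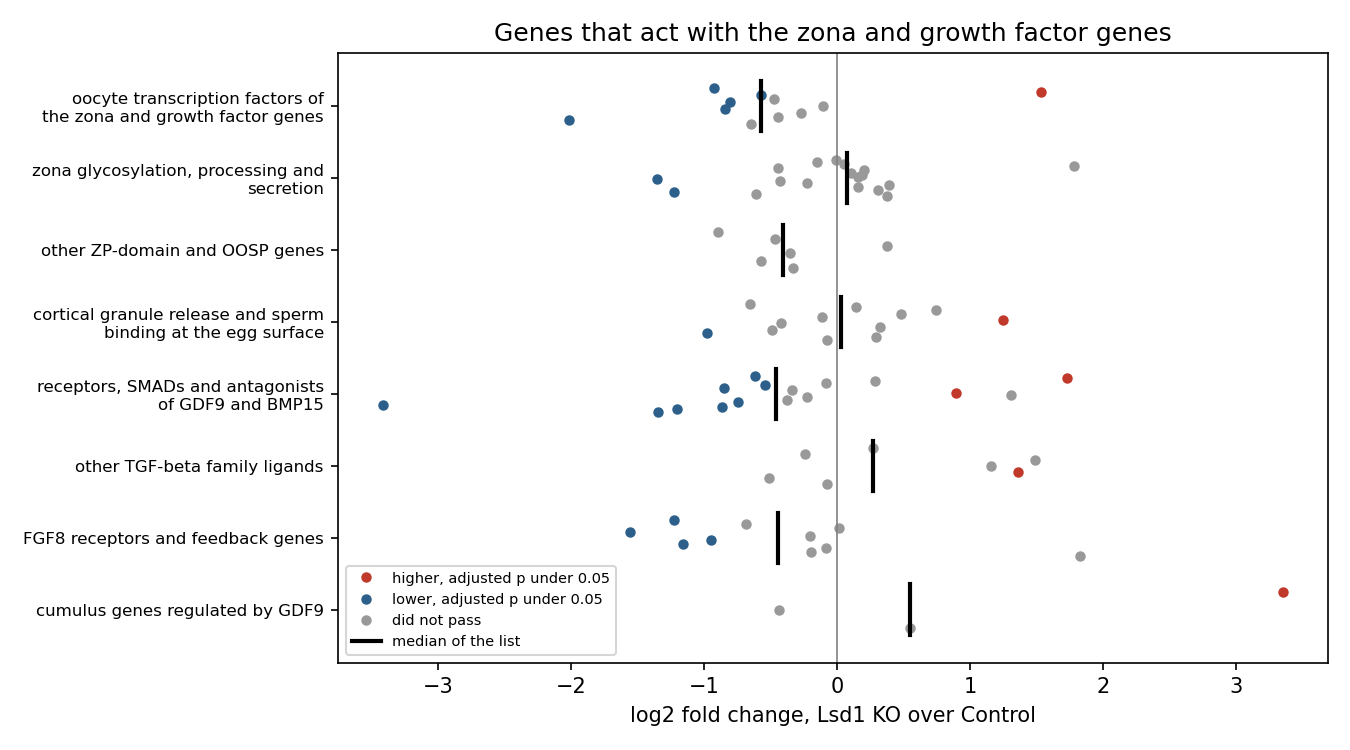
Log2 fold change, Lsd1 KO over Control, of each tested gene in 8 lists of genes that act with the zona and growth factor genes, with called genes in colour and the list median as a black bar. The regulator, receptor and FGF8 lists have medians of -0.57, -0.46 and -0.44, and the zona glycosylation list has one of 0.077.

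Of 18 genes of zona glycosylation, processing and secretion, all tested, none was higher and 2 were lower, with a median of 0.077. The share called was 11.1%, beside 21.3% of all genes tested. Galnt3, which starts O-linked glycans, fell from 24.5 ± 3.38 to 9.56 ± 0.774 CPM (log2 fold change -1.35 ± 0.24, with an edgeR adjusted p = 0.00232). C1galt1c1, the chaperone of the core 1 O-glycan enzyme, fell from 40.4 ± 6.06 to 17.3 ± 5.43 CPM. The chaperones Hsp90b1 (471 ± 21.1 against 422 ± 59.5 CPM) and Canx (320 ± 55.8 against 288 ± 18.8 CPM) were the most abundant and did not pass. None of the 6 tested ZP-domain and OOSP genes outside the set was called.

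Of 15 genes of cortical granule release and sperm binding 14 were in the files and 12 were tested, with 1 higher and 1 lower. That is 16.7% called, beside 21.3% of all genes tested. The tetraspanin Cd9, needed for sperm and egg to fuse, fell from 115 ± 30.0 to 58.2 ± 6.77 CPM (log2 fold change -0.98 ± 0.21, with an edgeR adjusted p = 0.00763). The vesicular zinc transporter Slc30a3 rose from 228 ± 121 to 541 ± 151 CPM, and this call was lost without Lsd1 KO replicate 2, Control replicate 1 or Control replicate 2. The complement regulator Cd55, the most abundant with Slc30a3, was at 514 ± 110 against 541 ± 50.5 CPM.

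Of 7 genes that GDF9 or the oocyte regulates in cumulus cells, 3 had enough counts in these oocyte libraries to be tested. Their levels in cumulus cells were not measured. Among these 1 was higher (33.3%, beside 21.3% of all genes tested). Ptgs2, the prostaglandin synthase of cumulus expansion, rose from 1.83 ± 0.352 to 18.7 ± 3.73 CPM (log2 fold change 3.35 ± 0.33, with an edgeR adjusted p = 6.23e-05). The glycolytic gene Pfkp was at 10.8 ± 0.707 against 14.7 ± 3.26 CPM and did not pass. Has2, Ptx3, Tnfaip6 and Grem1 were below 1 CPM in every library, so an expression change in them was not detectable at this depth.

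Markers of other ovarian cells were measured beside these results. The 16 granulosa and cumulus markers summed to 428 to 483 CPM in Lsd1 KO and 135 to 166 CPM in Control. Most of the Lsd1 KO sum was the aromatase gene Cyp19a1, which rose from 36.8 ± 11.0 to 324 ± 82.8 CPM. Without Cyp19a1 the sums were 78.0 to 189 CPM and 103 to 117 CPM, and overlapped. Nr5a2, a nuclear receptor gene that fell from 69.4 ± 3.10 to 28.7 ± 3.99 CPM, held most of the Control sum without Cyp19a1. With Nr5a2 left out as well, a choice made after its values were seen, the markers summed to 81.7, 51.0 and 156 CPM in Lsd1 KO, against 40.1, 29.8 and 48.9 CPM in Control, with no overlap. Of the 13 tested, 11 had log2 fold changes above 0 and the median was 1.36, beside -0.013 over all genes tested. Those called were Cyp19a1, Gja1 and Inha (higher) and Nr5a2 (lower), with Gja1 called in 3 and Inha in 2 of the 6 fits with 1 library left out. The granulosa cell regulator Gata4, which was not among these markers, was lower (log2 fold change -2.02 ± 0.41), so the median depends on the markers listed. Markers at low levels included Fshr at 3.51 ± 1.98 against 1.36 ± 0.442 CPM and Foxl2 at 1.53 to 6.01 against 0.301 to 2.03 CPM. Amh was at or below 1.35 CPM in every library. The 11 theca and stroma markers summed to 19.8 to 55.0 CPM in Lsd1 KO and 11.1 to 15.8 CPM in Control. Of the 4 tested, all had log2 fold changes above 0, with a median of 0.87, and the matrix gene Dcn alone was higher, at 7.57 ± 0.386 against 0.414 ± 0.169 CPM, and Hsd3b1, the most abundant, did not pass. The 12 blood and immune markers summed to 117, 7.04 and 103 CPM in Lsd1 KO, against 28.9, 4.75 and 36.1 CPM in Control. Of the 6 tested, all had log2 fold changes above 0, with a median of 1.78, and the macrophage marker Cd68 alone was called higher (in 2 of the 6 such fits), Lyz2 did not pass, and the 4 globin genes were at 0 in all libraries. Of the 10 oocyte markers, Mos alone was called, lower, and the most abundant, Ooep and Nlrp5, did not pass. Called shares of the markers tested were 30.8% (granulosa and cumulus), 25% (theca and stroma), 16.7% (blood and immune) and 10% (oocyte). Over all genes tested the share was 21.3%. The part of other cells in the Gdf9, Oosp1 and Fgf8 results was not tested. Lsd1 KO replicate 2 and Control replicate 3 had close granulosa sums without Cyp19a1 and Nr5a2 (51.0 and 48.9 CPM). Their full granulosa sums were 483 and 166 CPM, and without Cyp19a1 alone 78.0 and 117 CPM. In these libraries Gdf9 was at 16950 and 7015 CPM, Oosp1 at 2102 and 1306 CPM and Fgf8 at 3.16 and 13.4 CPM. Such a pair of single libraries cannot decide the part of other cells. With the immune sum as a covariate, chosen after seeing the data, Gdf9, Oosp1 and Fgf8 kept their calls. Each also kept it without Lsd1 KO replicate 1 and without Lsd1 KO replicate 3, the libraries with the highest immune sums. Each of these fits still held the other of those libraries. No fit took account of the granulosa or theca sums.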

How the data were processed

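The deposited files give raw read counts per gene symbol, 1 file per library, made by the authors. Build mm9 and the tools HTSeq 0.5.3p9, TopHat2 2.0.7 and CASAVA 1.8.2 come from the submitters' processing notes. Options, annotation and strand setting were not given in the sources used here. Per the labels, oocytes were lysed directly and cDNA was amplified before library preparation, which can alter the relative levels of genes.

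Genes were filtered with filterByExpr (minimum count 10), scaled by TMM and tested with edgeR 4.0.16 in R 4.3.3 (quasi-likelihood F test, two-sided, Benjamini-Hochberg over all genes). Replicate libraries differed by far more than counting noise (chi-square per degree of freedom 21.7 to 46.1). SEs were derived from the fold change and F statistic. Ratios used a prior count of 0.5 and exact permutation tests. Positions and exon lengths came from GENCODE M1 (NCBIM37, the assembly of mm9), and promoters from RefSeq (GRCm38.p6). The distance between profiles used log2 of CPM plus 2. Tables used Python 3.11.15 and scipy 1.17.1.

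The 8 genes and all lists were chosen with earlier results of these data known. The lists held 163 entries, 162 of them in the files (2 by synonym), and share some genes. Named were, in each list, up to 4 called genes with the smallest adjusted p and the 2 most abundant, and for Gdf9 and Zp3 the 3 nearest profiles. Adjacent genes were chosen by position. Alternatives were other scalings, filters and tests (DESeq2 1.42.0, limma-voom 3.58.1), a replicate block and each library left out. A length and GC correction and an immune covariate were chosen after seeing the data.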

Additional observations from a re-analysis of the deposited data

How the results depend on the processing

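Gdf9, Oosp1 and Fgf8 kept their direction and their call under all 16 alternatives in which a fold change was refitted, with log2 fold changes of 1.19 to 1.47, 0.73 to 0.95 and -2.19 to -1.94 (adjusted p up to 0.00506, 0.0414 and 0.00661). Zp2, Astl and Bmp15 kept their direction and did not pass in any. The number of the 8 called lower was 1 to 2 with 1 library left out, the second being Zp1 without Control replicate 3 (-0.57); its range over these fits was -0.57 to -0.24. The sign of Zp3 was not fixed: it ran from -0.30 to 0.076 with 1 library left out, and was 0.0021 with a filter of 10 CPM in 3 libraries and 0.019 with the immune covariate; the cause was not tested.

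Over all genes, 932 to 1466 were higher and 638 to 1346 lower with 1 library left out, and 676 and 497 at an adjusted p under 0.01. Fewer libraries entered the former fits. Same-numbered libraries did not deviate together (correlations across genes of -0.0704, 0.0774 and -0.0782), and not every library correlated best with its own number. Such weak correlations cannot decide whether the numbers pair the libraries, and the main fit did not treat them as pairs. With a replicate block 1270 genes were higher and 1098 lower, and Gdf9 was at 1.37, Oosp1 at 0.82, Fgf8 at -2.08 and Zp3 at -0.013. With 1 library left out, the Astl to Zp2 log2 difference ran from -0.079 to 0.22, so its sign was not fixed. The other 4 kept their direction, at 1.69 to 1.91 for Gdf9 to Bmp15, 1.16 to 1.77 for Gdf9 to Zp3, -0.35 to -0.27 for Zp1 to Zp3 and 0.40 to 0.48 for Zp2 to Zp3. Fgf8, at 35 to 45 counts in Lsd1 KO, is the gene whose level depth limits most.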
